A study of Mus musculus with 2 samples.

Results

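The AP-1 family is described here in T cells sorted from lymph nodes of mice, through 8 genes: Fos, Fosb, Fosl2, Jun, Junb, Jund, Batf and Atf3. They were chosen by gene symbol, with earlier results of these data known. Of the 8, 7 had a probe in the deposited value table, 1 probe each, among 8116 named genes. Fosl2 was not analysed here. One sample was labelled type 1 invariant NKT cells, innate-like T cells whose nearly uniform receptor sees lipids on CD1d, and the sample it was set against was labelled conventional CD4 T cells. Both came from female mice kept free of specific pathogens, and no strain, age or treatment is given in the labels. The populations were isolated by magnetic or fluorescence sorting, and which method served which sample is not stated. Total RNA of each was hybridised to 1 Illumina bead array, so no value has a replicate, no test between the populations was possible, and differences are given by their size.

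AP-1 is a dimer of proteins that share a basic region for DNA contact and a leucine zipper for pairing. Fos proteins bind DNA only when paired with Jun proteins, whereas Jun proteins can also pair with each other. Fos, Fosb, Jun and Junb are immediate early genes, whose transcription starts within minutes of a T cell receptor signal, a growth factor or physical stress, without new protein synthesis. Their products act with NFAT and NF-kB at cytokine genes of activated T cells.

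The values carry limits that touch every result below. The deposited value table gave log2 signals of 11866 probes, with both columns on 1 shared distribution and background left in, so folds of dim probes are understated. A probe counted as detected at 7.83 on the log2 scale, the lowest value with a detection p under 0.01 for the conventional CD4 T array. The deposited non-normalized table did not match the value table for the invariant NKT sample (Spearman's rho 0.822 across probes, which are not replicates), while it did for the conventional CD4 T sample (rho 1). Of the 25697 probes with intensities, 0 differed 2-fold between the samples. Marker differences of the value table were absent there. Ifng differed by 6.76 in the value table and had a log2 intensity ratio of 0.04 in the non-normalized table. For Cd8b1 these values were -6.27 and -0.18. The labels do not say which table holds the signals of the invariant NKT sample, and the cause of the mismatch was not tested. Markers were also mixed. The T cell gene Cd3e was near equal, at 14.55 in the NKT-labelled library and 14.44 in the CD4-labelled library. Of 10 NKT and NK cell markers 9 were 2-fold or more higher in the NKT-labelled library. Cd8b1, a chain of the CD8 co-receptor, stood at 9.33 in that library and at 15.60 in the CD4-labelled library, which goes against the label of that sample, and its second probe differed by -5.53. Itgae, the integrin CD103 of many CD8 T cells, was at least 49.0-fold lower in the NKT-labelled library. Cd4 itself stood at 8.997 in the NKT-labelled library and 9.61 in the CD4-labelled library, a difference of -0.61. The samples are therefore called the NKT-labelled and the CD4-labelled library, and each difference is the log2 value of the NKT-labelled minus that of the CD4-labelled library.

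All 7 AP-1 probes were brighter in the NKT-labelled library, by 0.24 to 2.37 on the log2 scale, where 48.1% of all detected probes were brighter. Fosb, Atf3, Junb and Jund reached 2-fold or more, Jun and Batf lay just short of it, and Fos was close to equal. Thus 4 of 7 members were 2-fold or more higher and 0 were lower, where 9.35% of all 7272 detected genes were higher and 10.2% were lower. Atf3 was detected in the NKT-labelled library only. Of the 6 members detected in both libraries 3 were higher, with a median of 1.05. Because the members were chosen with earlier results of these data known, these counts describe them and are not independent support. The median difference of the 7 was 1.17, beside -0.05 over all detected genes. In the non-normalized table, given below, the log2 intensity ratios of the members ran from -0.18 to -0.02. Over all probes there, the SD of that ratio was 0.11. After quantile normalisation of that table Fos, Jun and Jund lay slightly above 0, so these ratios show no common direction. Between 2 probes of the same gene the log2 difference had an SD of 0.60 (1903 genes), and each AP-1 gene had only 1 probe. Of 222 such genes that were 2-fold or more higher at the brightest probe, 100 were so at the second probe too.

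**Figure D1:**
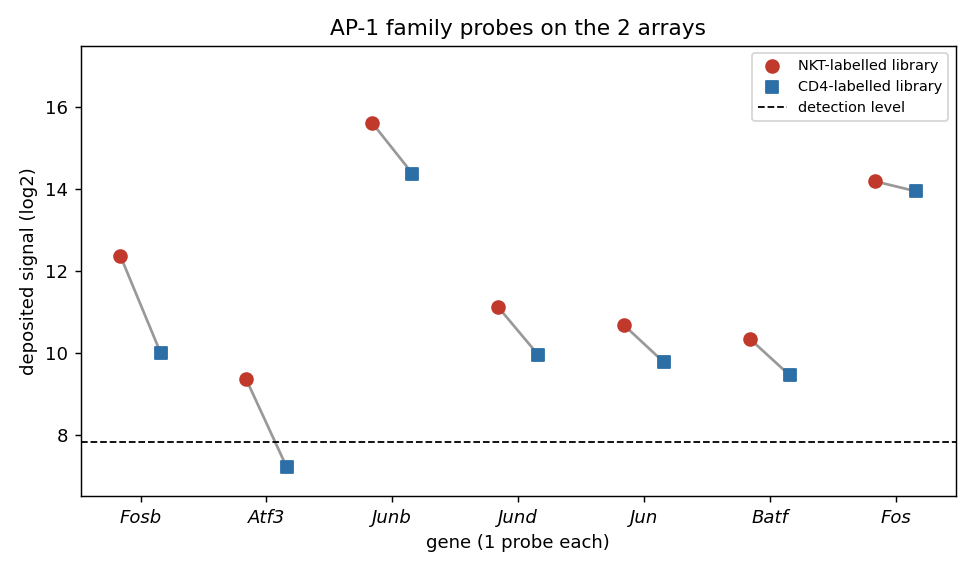
Deposited log2 signal (vertical axis) of the 1 probe of each of 7 AP-1 genes in the NKT-labelled library (red circles) and the CD4-labelled library (blue squares), 1 array each and no error bars. Every red circle lies above its blue square, Fos has the flattest line, and only Atf3 has a value under the dashed detection level of 7.83.

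Within the Fos subfamily the members differed most from each other. Fosb, an immediate early relative of Fos, had a log2 signal of 12.37 in the NKT-labelled library, against 9.999 in the CD4-labelled library. The difference of 2.37 (5.17-fold) was larger than that of all but 161 of 10531 detected probes. Fos, the founding member and partner of Jun, had 14.19 in the NKT-labelled library, against 13.95 in the CD4-labelled library. Its difference of 0.24 (1.18-fold) is smaller than the SD between 2 probes of a gene. Fos thus stood more than 6 log2 units above the detection level in both libraries (6.36 in the NKT-labelled and 6.12 in the CD4-labelled library). The differences of Fosb and Fos lay 2.13 apart.

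The 3 Jun genes differed by similar amounts. Junb, a Jun protein that promotes Il4 transcription in type 2 helper cells, had 15.62 in the NKT-labelled library, against 14.38 in the CD4-labelled library, a difference of 1.24 (2.36-fold). Its first value lay 0.44 below the highest value of the table, 16.07. Jund, which restrains proliferation of lymphocytes, had 11.13 in the NKT-labelled library, against 9.95 in the CD4-labelled library, a difference of 1.17 (2.26-fold). Jun, a strong activator of transcription, had 10.68 in the NKT-labelled library, against 9.77 in the CD4-labelled library, a difference of 0.92 (1.89-fold). The Jun differences spanned 0.32, less than the SD between 2 probes of a gene, so the 2-fold line that separates Jund from Jun does not set them apart.

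Batf and Atf3 pair with Jun proteins but belong to other branches of the basic leucine zipper family. Batf, which lacks an activation domain and binds with Jun and IRF4 at genes of effector T cells, had 10.35 in the NKT-labelled library, against 9.45 in the CD4-labelled library, a difference of 0.90 (1.87-fold). Atf3, a factor induced by many kinds of cell stress, had 9.35 in the NKT-labelled library, against 7.22 in the CD4-labelled library, where it was below the detection level. Only a bound can be given for it, at least 2.87-fold higher.

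**Figure D2:**
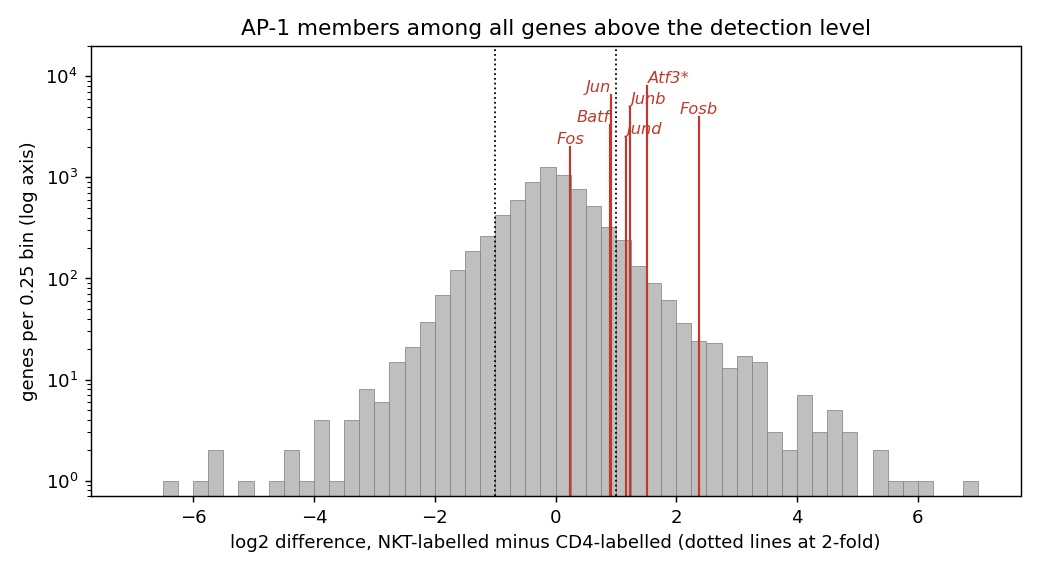
Number of genes (vertical log axis, bins of 0.25) by log2 difference between the libraries (horizontal axis, NKT-labelled minus CD4-labelled), over 7272 detected genes at their brightest probe, with genes of 1 library at their bound. Red lines mark the 7 AP-1 genes, all right of 0 and 4 of them right of the dotted 2-fold line, with the bound of Atf3 marked by an asterisk.

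The DNA just upstream of these genes is shown for 3 of the 4 members that were 2-fold or more higher (Junb, Jund and Atf3) and for Fos, which was close to equal. Sequences are from RefSeq, build GRCm38.p6, read 5′ to 3′ on the gene's strand, and cover the 250 bases before the start in the RefSeq table. The window of Fosb is not printed, because 73 of its bases lie inside RefSeq's gene span. Capitals mark TGACG, the core of the cAMP response element (CRE) bound by CREB and ATF proteins, on either strand, and TATAAA, the TATA box.
Fos (chr12:85473640-85473889, plus strand): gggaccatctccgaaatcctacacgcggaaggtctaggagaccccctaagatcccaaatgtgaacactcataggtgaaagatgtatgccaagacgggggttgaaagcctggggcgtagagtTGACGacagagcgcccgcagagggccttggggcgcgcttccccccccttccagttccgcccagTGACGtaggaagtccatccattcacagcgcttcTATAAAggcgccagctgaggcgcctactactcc
Junb (chr8:84978749-84978998, minus strand): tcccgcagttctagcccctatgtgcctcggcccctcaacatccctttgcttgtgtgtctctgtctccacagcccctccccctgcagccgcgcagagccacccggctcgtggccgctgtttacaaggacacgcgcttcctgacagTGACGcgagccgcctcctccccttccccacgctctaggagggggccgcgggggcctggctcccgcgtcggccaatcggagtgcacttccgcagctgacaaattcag
Jund (chr8:70697489-70697738, plus strand): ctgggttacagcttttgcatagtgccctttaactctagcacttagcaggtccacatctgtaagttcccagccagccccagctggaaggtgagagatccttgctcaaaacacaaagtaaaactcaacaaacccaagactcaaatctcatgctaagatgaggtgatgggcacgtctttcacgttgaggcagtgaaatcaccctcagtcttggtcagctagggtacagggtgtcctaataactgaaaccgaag
Atf3 (chr1:191183334-191183583, minus strand): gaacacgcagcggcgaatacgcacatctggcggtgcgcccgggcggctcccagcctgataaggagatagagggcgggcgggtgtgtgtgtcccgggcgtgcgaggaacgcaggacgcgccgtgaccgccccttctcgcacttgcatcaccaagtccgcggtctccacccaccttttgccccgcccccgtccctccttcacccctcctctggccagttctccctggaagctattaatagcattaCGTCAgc
All 8 genes matched the promoter table. TGACG was found in 5 of their 8 windows (Fos, Fosb, Junb, Atf3 and Batf), against 17.8% of all 32851 windows of that length, although the match of Fosb lies in the stretch inside the gene span. It was not found in the window of Jund. The windows with it belong to Fos, whose difference was the smallest, as well as to Fosb, whose difference was the largest. TATAAA, on either strand, was found in 1 window, that of Fos, against 12.4% of all windows. The whole CRE, TGACGTCA, which overlaps TGACG, was found in 0 of the 8 and in 1.55% of all windows, and the AP-1 site itself, TGAGTCA, in 0 of the 8 and in 4.46% of all. The CArG box, bound by serum response factor, was also found in 0 of the 8, against 1.47% of all windows. GAANNTTC, a core of the heat shock element, was found upstream of Jun and Fosl2, against 6.69% of all windows. These are letters in a short window, and no binding was measured.

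The wider family and the partners of AP-1 were then described by gene list, each gene at its brightest probe. Each list count below stands beside the shares over all detected genes, 9.35% higher and 10.2% lower. Among other basic leucine zipper genes 19 of 37 were detected, of which 6 were 2-fold or more higher in the NKT-labelled library and 0 were lower, with a median of 0.49. Nfil3, a factor needed for NK cell development, had 11.78 in the NKT-labelled library and 8.85 in the CD4-labelled library, a difference of 2.93. Cebpb, a regulator of inflammatory genes that is abundant in myeloid cells, differed by 2.43. Ddit3 and Atf4, factors of the response to misfolded protein and amino acid shortage, differed by 2.20 and 1.34, although the second probe of Ddit3 differed by only 0.25. Bach1, a repressor controlled by haem, differed by 1.19, and Crem, a cAMP-responsive factor, was at least 2.25-fold higher at 1 of its 3 probes. The lowest of the list were Nfe2l1 at -0.33, Creb1 at -0.29 and Tef at -0.22.

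Among genes listed as partners of AP-1, 3 of 8 detected genes were 2-fold or more higher and 0 were lower, with a median of 0.52. Smad3, which carries TGF-beta signals, differed by 1.54, and Nfatc3, a calcium-dependent factor of T cell activation, also by 1.54. Runx1 differed by 1.12 and Nfatc1 by 0.80. Irf8, Nfatc2ip and Ets1 were the lowest, at -0.06, -0.41 and -0.78, although the other probes of Ets1 differed by 0.04 and 0.52.

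The MAP kinase pathway, which switches AP-1 genes on and phosphorylates their products, lay near the background. Of 16 detected genes 2 were 2-fold or more higher and 2 lower, with a median of -0.29. Map3k8 (Tpl2), a kinase upstream of ERK, differed by 1.90, and Map2k3, which activates p38, by 1.88. Map2k2, a kinase of ERK, differed by 0.76 and Map2k6, another kinase of p38, by 0.51. Mapk8 (JNK1), a kinase of Jun, differed by -1.05, its relative Mapk9 (JNK2) by -0.79, with its other probes at -0.47 and 0.11. Srf, the factor that binds the CArG box, differed by -1.04, but its second probe by 0.40. With the probes of each gene averaged, 1 gene of the list was lower.

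Genes listed as regulators of AP-1 or of early transcripts went both ways, with 1 of 11 detected genes 2-fold or more higher, 3 lower and a median of -0.36. The 1 higher gene is near the share of 9.35% over all detected genes, of which 10.2% were lower. Dusp6, a phosphatase of ERK, differed by 1.02, but its 3 probes ranged from -0.38 to 1.39. Dusp1, an early phosphatase of JNK and p38, had 15.30 in the NKT-labelled library, against 14.48 in the CD4-labelled library, a difference of 0.82. Zfp36, which marks cytokine transcripts for decay, differed by 0.87, and Dusp4 by 0.82. Trib2, a pseudokinase, differed by -3.85, Pdcd4, an inhibitor of translation that dampens AP-1 activity, by -1.93, and Dusp10, a phosphatase of JNK, by -1.04, although its second probe differed by 0.14.

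Genes induced by stress and by cell handling stand beside the AP-1 values as follows. The list, which holds no AP-1 member, had 8 of 21 detected genes 2-fold or more higher and 3 lower, with a median of 0.36. Hspa1a, the inducible heat shock protein HSP70, had 13.83 in the NKT-labelled library, against 7.36 in the CD4-labelled library, which was below the detection level, so it was at least 64.0-fold higher. Gadd45b, a stress sensor upstream of p38, differed by 4.63, Nfkbia, the early inhibitor of NF-kB, by 3.44, and Mt1, a metallothionein, was at least 12.8-fold higher. The immediate early gene Egr1, like Fos, was high in both, at 13.33 in the NKT-labelled library and 13.12 in the CD4-labelled library. The mitochondrial chaperones Hspe1 and Hspd1 differed by -2.10 and -1.31, although the second probe of Hspd1 differed by only -0.03, and the survival gene Mcl1 by -1.11.

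Genes induced through the T cell receptor were mixed, with 6 of 19 detected genes 2-fold or more higher, 3 lower and a median of 0.20. Of these genes, 5 were detected in the NKT-labelled library only. Among the 14 detected in both libraries 4 were higher, and the median was -0.24. Bhlhe40, a factor that supports cytokine production, differed by 3.23. Pim1, a survival kinase, was at least 3.82-fold higher, Nr4a2, an early nuclear receptor, at least 2.28-fold, and Nfkbid, a nuclear partner of NF-kB, differed by 1.16. Cd69, an early surface marker of activation, had 14.07 in the NKT-labelled library, against 14.43 in the CD4-labelled library, a difference of -0.36. Ctla4, Egr2 and Tnfrsf4, also induced by activation, differed by -2.44, -1.63 and -1.19.

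Genes listed for the effector state of invariant NKT cells, among them receptors and transcription factors, were mostly higher. Of 23 detected genes 20 were 2-fold or more higher and 0 lower, with a median of 1.98. The list was chosen with earlier results of these data known. It shares Xcl1, Tbx21, Klrb1c, Il2rb, Nkg7, Cxcr6 and Klrd1 with the NKT and NK cell markers, so the 2 counts are not independent. Ifng, which encodes interferon gamma, had 14.97 in the NKT-labelled library, against 8.22 in the CD4-labelled library, a difference of 6.76. Il4 was at least 38.3-fold higher, and Xcl1 and Tbx21 differed by 4.88 and 3.37. The lowest of the list were Il18r1 at -0.73, Klrd1 at -0.05 and Il13, which was detected in the NKT-labelled library only, with a bound of 1.06-fold. Genes of naive T cells went the other way, with 9 of 11 lower, 0 higher and a median of -2.85, among them Actn1 (at least 55.0-fold lower), Igfbp4 (-5.53) and Nsg2 (at least 37.1-fold lower). Of 9 detected housekeeping genes 1 was higher (Actb, 1.12) and 2 lower, with a median of -0.30, and Gapdh differed by 0.89. Other bright probes of Actb differed by 1.80 and 4.26, and its dim probes had log2 bounds of 0.08 and 0.17.

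The AP-1 probes were thus higher in a library where a part of the stress genes, a part of the receptor-induced genes and most effector genes were higher too. The parts of sorting stress and of a standing activated state in the AP-1 values were not tested, and with 1 array per population they cannot be told apart. Markers of other cell types were higher in the same library. All 6 detected hepatocyte genes and all 3 detected red cell genes were 2-fold or more higher in the NKT-labelled library, as were 2 of 4 neutrophil genes (Mmp9 and S100a8) and 2 of 3 myeloid genes (Cebpb and Lyz2). Ctss, the other detected myeloid gene, was at least 2.20-fold lower, and the second probe of Lyz2 differed by -0.52. The summed linear signal of the 3 red cell genes was 74606 in the NKT-labelled library and 1241 in the CD4-labelled library. Among them, Hba-a1 had log2 values of 16.04 in the NKT-labelled and 9.84 in the CD4-labelled library. The 6 hepatocyte genes summed to 12962 in the NKT-labelled and 915 in the CD4-labelled library. The summed linear signal of the 5 myeloid genes on the table was 19943 in the NKT-labelled library and 4509 in the CD4-labelled library. Cebpb made up most of it, and without that gene the sums were 1484 in the NKT-labelled and 1088 in the CD4-labelled library. The 4 neutrophil genes summed to 8729 in the NKT-labelled and 664 in the CD4-labelled library, and without Mmp9 to 1960 in the NKT-labelled and 456 in the CD4-labelled library. Of the 5 myeloid genes, Cd14 and Fcgr3 were below the detection level in both libraries. Of 3 detected B cell genes 0 were higher. Cebpb stands on both the myeloid list and that of other basic leucine zipper genes. The part of such cells in the AP-1 values was not tested, and a change in the share of a cell type cannot be told apart from a change in RNA per cell.

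**Figure D3:**
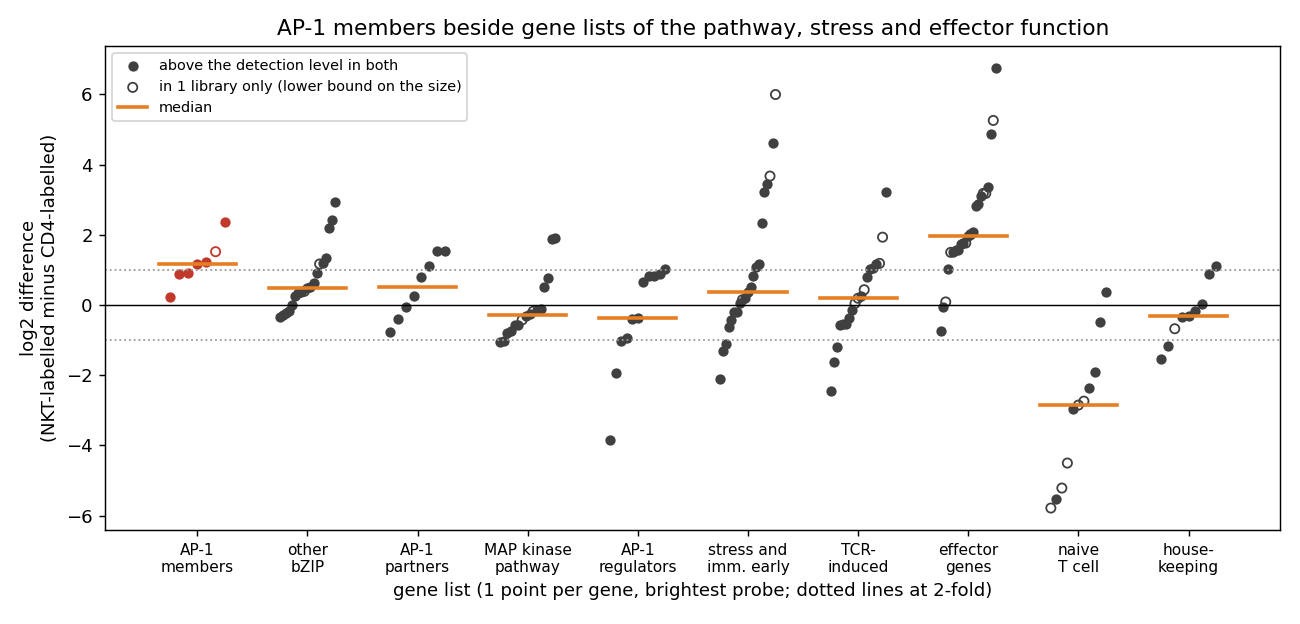
Log2 difference between the libraries (vertical axis, NKT-labelled minus CD4-labelled) for each detected gene of 10 lists, at its brightest probe, with list medians as orange lines. The AP-1 genes (red) have a median of 1.17, under the effector genes (1.98) and above the stress and immediate early genes (0.36), and open circles mark genes detected in 1 library, given at their bound.

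The non-normalized table, in which 0 of 25697 probes differed 2-fold, gave near equal values for the same 7 probes. Its column for the invariant NKT sample is nearly that of the other sample. Fosb had an intensity of 941 in the NKT-labelled library and 1068 in the CD4-labelled library, a log2 ratio of -0.18. Junb had 17648 in the NKT-labelled library and 19188 in the CD4-labelled library, and Fos had 14327 in the NKT-labelled and 14890 in the CD4-labelled library. Across the 7 probes the log2 ratio ran from -0.18 to -0.02, and 0 of 7 differed 2-fold. Atf3 was not detected in either column, with detection p-values of 0.788 for the NKT-labelled and 0.663 for the CD4-labelled library, whereas the other 6 were detected in both. The high signal of Fos and Junb in the CD4-labelled library is in both tables, but their columns for that library rank the probes alike (rho 1). It is therefore the same measurement read again. The higher AP-1 values of the NKT-labelled library rest on the value table alone.

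**Figure D4:**
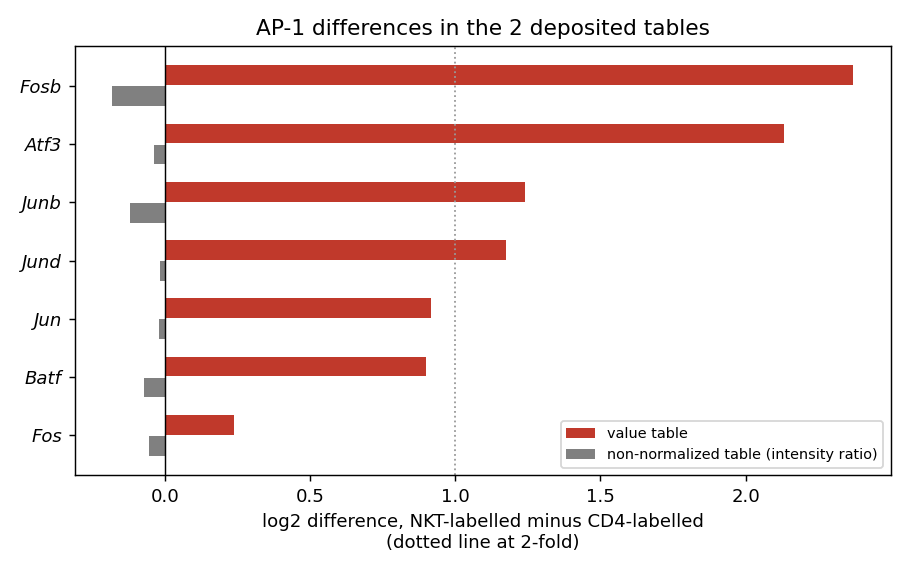
Log2 difference (horizontal axis, NKT-labelled minus CD4-labelled) of the 7 AP-1 probes in the value table (red bars) and as the ratio of intensities in the non-normalized table (grey bars), without error bars as there is 1 array per group. Red bars run from 0.24 to 2.37 and grey bars from -0.18 to -0.02, and the bar of Atf3 is the measured difference from a value below the detection level.

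The genes nearest to Fosb in their pair of log2 values over the 2 libraries were Litaf, Ndufc2 and Actn4, at distances of 0.13, 0.16 and 0.19. Those nearest to Fos were Ppp1ca, Srsf2 and Krtcap2, at distances of 0.11, 0.15 and 0.18. With 2 libraries, such a likeness describes these values only.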

How the data were processed

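RNA of 2 sorted populations was measured on 1 Illumina bead array each. RNA came from QIAGEN RNeasy columns and was biotinylated with the Illumina TotalPrep kit, per the labels' protocols, and per the submitters' processing notes GenomeStudio 2009.2 was used. The authors deposited log2 values of 11866 probes, equal within 0.00025 between the columns after sorting, as quantile normalisation leaves them; no source used here states the normalisation. The authors also deposited a non-normalized intensity per probe with a detection p-value, per the file headers.

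Samples were grouped by the labelled cell type. The members and gene lists were chosen with earlier results of these data known. Gene symbols came from the platform annotation. A gene was taken at its probe with the highest mean, called at 2-fold, and given a bound (bright value minus the detection level or, if higher, the dim value) where 1 library lay below that level. Genes named were all members, up to 4 highest and 3 lowest of each list, all other basic leucine zipper genes 2-fold apart, 12 genes fixed by name and the 3 nearest to Fosb and to Fos; of the 12, Nr4a1 was not analysed here, and second probes and markers of other cells were added after values were seen. Alternatives were background subtraction, other detection levels, centring, other fold thresholds, the mean of probes, and the non-normalized table by quantile normalisation or neqc (limma 3.58.1, R 4.3.3, offset 16). The calling rule was tested on simulated data. Array number limits the precision, and no p-value between groups was computed.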

Additional observations from a re-analysis of the deposited data

How the results depend on the processing

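The count of 4 AP-1 members 2-fold or more higher became 6 with background subtracted, with Jun at 1.08 and Batf at 1.11. It was also 6 when centred on housekeeping genes, which shifts every difference by 0.24 upward, and at a threshold of 1.5-fold. At a threshold of 3-fold it became 1, Fosb alone, and it stayed 4 when centred on all detected probes, at a detection p under 0.05, with no filter on detection, and when probes of a gene were averaged. The count of members 2-fold or more lower was 0 under these alternatives and in the non-normalized table. Of all detected probes, 9.80% were higher and 9.70% lower as reported, 14.2% and 6.28% when centred on housekeeping genes, and 18.1% and 18.9% with background subtracted. The shares were 19.06% higher and 20.15% lower at a threshold of 1.5-fold, and 3.84% and 3.16% at 3-fold. Centred on all detected probes they were 10.5% and 8.97%. Centring on housekeeping genes also changed the MAP kinase list to 0 lower and the list of AP-1 regulators to 4 higher, and averaging the probes of a gene changed them to 1 lower and to 0 higher. With probes averaged, the stress list had 9 higher, 2 lower and a median of 0.67. The receptor-induced list then had 5 higher, 3 lower and a median of 0.05, and the effector list 18, 0 and 1.77. In the non-normalized table the count of higher members was 0 after quantile normalisation and 0 after neqc. Of all detected probes there, 0% were higher and 0% lower under either method. A count of 0 was thus fixed for any list of genes, and these settings do not check the AP-1 differences. The median of members turned to -0.0194 with quantile normalisation and to -0.0251 with neqc, against 1.17. Fosb, Junb and Atf3 stood at -0.153, -0.0876 and -0.0494 with quantile normalisation and at -0.181, -0.0884 and -0.0616 with neqc. Batf stood at -0.0472 and -0.0603. Fos, Jun and Jund were slightly positive, at 0.0133, 0.00845 and 0.0240 with quantile normalisation and at 0.0133, 0.0102 and 0.0283 with neqc. Naive T cell genes had medians of 0.0338 and 0.0342 there, and effector genes of 0.00123 and 0.00297. No listed gene stayed 2-fold apart. The non-normalized column of the invariant NKT sample is nearly that of the other sample, and the cause was not tested. No paired analysis was possible because each group has 1 array, and neither library could be left out. Atf3 rests on 1 probe whose CD4-labelled value lies below the detection level.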
